A study of Mus musculus with 17 samples.

Results

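Homer1, Homer2 and Homer3, together with Gm47075 and Gm47088, 2 annotated transcripts that lie inside Homer1 on its strand, make up 5 of the 55471 genes whose raw counts were deposited for the hippocampus of CBP-ifKO mice and control littermates. They were picked by gene symbol and found by Ensembl identifier in the count table. Homer2 and Homer3 came in with the family name, whereas Homer1 and the transcripts inside it were chosen with their levels after pentylenetetrazole (PTZ) known. Their values in those contrasts are therefore given as a description, with no test. All 5 genes had at least 10 counts in every library, and each had an adjusted p wherever it was tested except Gm47075 and Gm47088 in 1 comparison, genotype in PTZ0.

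CBP-ifKO mice carried floxed Crebbp alleles together with creERT2, a Cre recombinase that tamoxifen switches on and the Camk2a promoter drives, which leaves a truncated CBP in forebrain excitatory neurons. Other hippocampal cells keep the intact gene. Controls were littermates, described in the study's methods as lacking creERT2, although their labels name the Camk2a_creERT2 line too. All mice were C57BL/6 (C57BL/6J in the study's methods), 3 to 6 months old, and received tamoxifen in 5 administrations. Each genotype was split into mice that were never kindled and received saline (Sal), mice kindled with 45 mg/kg PTZ, a GABA-A receptor antagonist that provokes seizures, and given saline on the last day (PTZ0), and kindled mice given 45 mg/kg PTZ on the last day (PTZ45). Hippocampi were collected 45 min after the last injection. Kindled here names the course of PTZ injections. The study reports that this course led to seizures in controls, whereas none of the CBP-ifKOs entered the stage of progressive seizures. In PTZ45, genotype and seizure history therefore cannot be told apart, and the part of seizures in the results was not tested. Every group held 3 libraries, 1 per animal, except Control PTZ45, which held 2.

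Library totals ran from 5831992 counts in CBP-ifKO Sal replicate 2 to 18735643, and replicates differed by more than counting noise. Crebbp itself, as normalized counts (counts divided by DESeq2 size factors over the 17 libraries), averaged 2169 ± 201 (SD) in the 8 control libraries and 1214 ± 95 (SD) in the 9 from CBP-ifKOs, with no overlap (1824 to 2429 against 1061 to 1337). The labels name 3 sequencing lanes. Lane 3 held Control Sal and Control PTZ0, lane 4 held CBP-ifKO Sal and Control PTZ45, and lane 5 held CBP-ifKO PTZ0 and CBP-ifKO PTZ45. Only PTZ0 against Sal in controls and PTZ45 against PTZ0 in CBP-ifKOs were thus made within a lane, and in the other comparisons lane and group cannot be told apart. Markers of hippocampal cells were found in every group. Summed choroid plexus markers varied within groups, from 443 to 10797 normalized counts in Control Sal and from 531 to 44253 in CBP-ifKO Sal, whereas both Control PTZ45 libraries were low (780 to 916). The median log2 fold change of these 6 markers was -1.19 for PTZ45 against Sal in controls, -0.44 in CBP-ifKOs, and -2.42 and -0.11 for PTZ45 against PTZ0 in the same order. For genotype it was 1.87 in Sal, 0.30 in PTZ0, 2.60 in PTZ45 and 0.93 over Sal and PTZ0. None of the 6 was called in these comparisons, and their part in the results for the Homer genes was not tested.

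Homer proteins are scaffolds of the excitatory synapse. Their N-terminal domain binds proline-rich stretches of group I metabotropic glutamate receptors, Shank proteins and inositol trisphosphate receptors, and the long forms join these partners through a C-terminal coiled coil. Homer1 also gives rise to a short form, Homer1a, which lacks the coiled coil, is made as an immediate early gene product after neuronal activity, and competes with the long forms. Homer2 and Homer3 encode further long forms.

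Homer1 (ENSMUSG00000007617) lies at chr13:93299635-93405129 on the plus strand of GRCm38, with 12 annotated transcripts. Counts were made per gene and not per transcript, so short and long forms share the Homer1 count. In GENCODE M21 the short coding form is Homer1-204, with 5 exons and 561 coding bases, and a long form is Homer1-201, with 9 exons and 1065 coding bases, both counted with the stop codon. The first 527 coding bases are shared. The sequences where they part are shown because this is the point at which the short form loses the rest of the protein; the lower-case letters are the last 30 shared bases and the capitals are the next 34 coding bases of each transcript, which in Homer1-204 run to its stop codon.
Homer1-204: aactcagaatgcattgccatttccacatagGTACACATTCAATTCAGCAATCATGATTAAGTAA
Homer1-201: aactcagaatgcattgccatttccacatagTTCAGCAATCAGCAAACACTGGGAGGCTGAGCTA

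Gm47075 (ENSMUSG00000114169) lies at chr13:93312041-93314055 and Gm47088 (ENSMUSG00000113076) at chr13:93317427-93319065, both on the plus strand. Each is a single exon, of 2015 and 1639 bases, of the annotation type TEC, which awaits experimental evidence, and neither has an assigned function. They share 0 bases with the exons of Homer1. Both lie in the first intron of 11 of the 12 Homer1 transcripts and in intron 3 of the remaining one, a noncoding transcript. Gm47075 begins 7546 bases after the start of Homer1-204, and Gm47088 begins 3371 bases after the end of Gm47075. The part of the last exon of Homer1-204 that belongs to no other transcript, chr13:93356080-93360462 (4383 bases), begins 42024 bases after the end of Gm47075 and 37014 bases after the end of Gm47088. Reads of that own end of the short form were therefore counted as Homer1, and the counts of Gm47075 and Gm47088 hold no exonic base of it. A read from unspliced Homer1 RNA that falls inside either transcript is counted to that transcript, because features were counted by position.

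**Figure D1:**
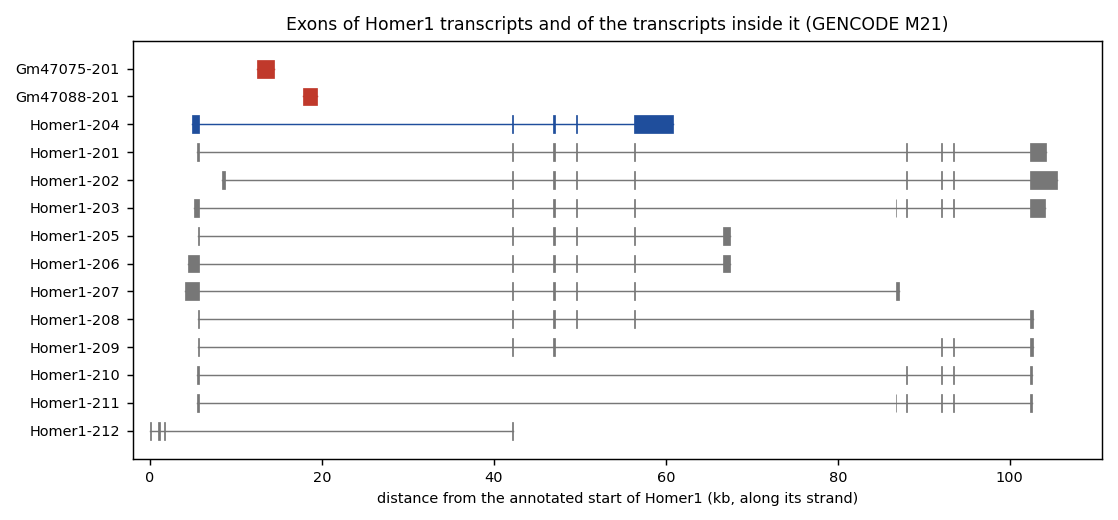
Exons (boxes) and introns (lines) of the 12 Homer1 transcripts and of Gm47075 and Gm47088, against the distance in kb from the annotated start of Homer1 along its strand. Both single-exon transcripts (red) sit in the first intron of 11 transcripts, far upstream of the last exon of the short form Homer1-204 (blue).

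The last 50 bases of each transcript are shown with any AATAAA, the canonical polyadenylation signal, in capitals.
Gm47075: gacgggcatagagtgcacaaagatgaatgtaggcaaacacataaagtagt
Gm47088: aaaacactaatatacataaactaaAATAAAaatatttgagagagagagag
Gm47075 held 0 copies and Gm47088 held 1, which starts 26 bases from its end. Of 3295 TEC transcripts of at least 50 bases, 21.9% held the motif in this window.

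The promoter of Homer1 is shown because CBP is known as a coactivator of CREB, which binds the motif TGACGTCA and its shorter variant TGACG. Windows of 250 bases before to 50 bases after a RefSeq start (GRCm38.p6) were searched on both strands. In the window at chr13:93303507-93303806, on the plus strand, the capitals mark TGACG, at positions 195, 211 and 237 counted from 1 at the 5′ end.
Homer1 promoter: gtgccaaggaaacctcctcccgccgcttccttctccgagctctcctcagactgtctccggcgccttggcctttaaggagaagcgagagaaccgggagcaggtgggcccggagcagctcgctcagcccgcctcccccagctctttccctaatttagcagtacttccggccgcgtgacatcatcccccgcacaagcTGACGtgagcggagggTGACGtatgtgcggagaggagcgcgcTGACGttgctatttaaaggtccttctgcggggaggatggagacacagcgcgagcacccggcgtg
At least 1 TGACG was present in 20.8% of 32851 promoter windows and at least 3 in 1.03%. The second Homer1 window, both Homer2 windows and the Homer3 window held 0 copies. TGACGTCA, which contains TGACG, was in none of these 5 windows and in 1.8% of all windows. The AP-1 motif TGANTCA and the E-box CACGTG were also absent from the 5 windows, against 7.8% and 7.2% of all windows. Gm47075 and Gm47088 have no entry in the promoter table.

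Gm47075 was low in all libraries that had not received PTZ on the last day and high in those that had. In Control Sal it stood at 45.2, 45.6 and 74.1 normalized counts and in Control PTZ0 at 46.5, 60.9 and 42.8. The Control PTZ45 libraries held 1258 and 1020, far above every saline library. In CBP-ifKOs the values were 58.3, 51.9 and 36.9 in Sal, 63.3, 48.7 and 54.4 in PTZ0, and 172, 190 and 180 in PTZ45. The PTZ45 libraries of CBP-ifKOs lay above all libraries without PTZ on the last day and below both Control PTZ45 libraries, with no overlap on either side.

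Gm47088 showed the same order. Its normalized counts were 24.2, 28.3 and 40.7 in Control Sal, 25.5, 25.8 and 32.4 in Control PTZ0, and 644 and 498 in Control PTZ45. CBP-ifKOs held 51.2, 45.7 and 26.6 in Sal, 36.5, 20 and 17.3 in PTZ0, and 94.6, 109 and 125 in PTZ45. Within the libraries that received saline on the last day, the groups of both genotypes overlapped.

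**Figure D2:**
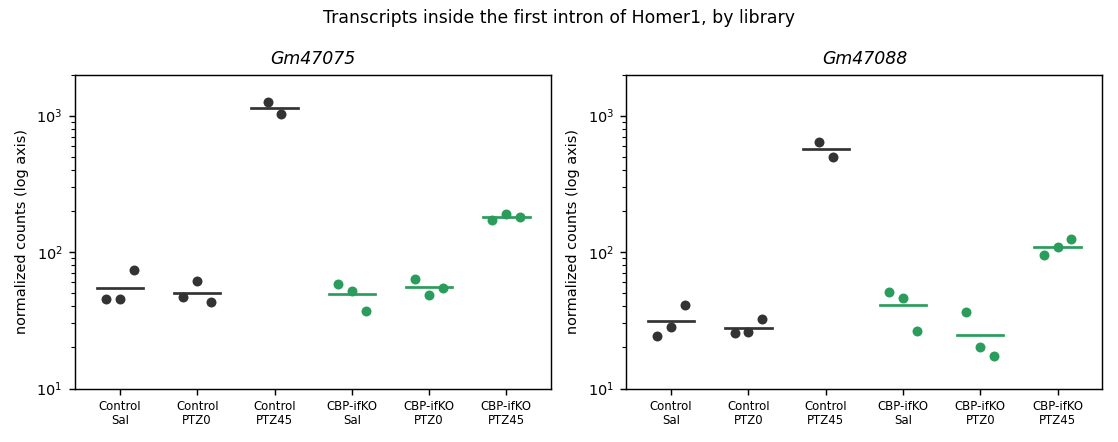
Normalized counts (log axis) of Gm47075 and Gm47088 in each library of the 6 groups, with points for libraries and lines for group means (black, controls; green, CBP-ifKOs). Control PTZ45 stands highest (1020 and 1258 for Gm47075), CBP-ifKO PTZ45 is intermediate (172 to 190), and the 4 saline groups overlap.

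Against Sal, PTZ45 gave a log2 fold change of 4.37 (SE 0.31) for Gm47075 and 4.20 (SE 0.22) for Gm47088 in controls, 20.6-fold and 18.4-fold. In CBP-ifKOs the log2 fold changes were 1.89 (SE 0.23) and 1.42 (SE 0.28), 3.7-fold and 2.68-fold. The genotype by PTZ45 interaction, which measures how far the response of CBP-ifKOs differed from that of controls, was -2.48 (SE 0.27) and -2.78 (SE 0.34). With kindled mice as the reference (PTZ45 against PTZ0), the log2 fold changes were 4.52 (SE 0.17) and 4.35 (SE 0.22) in controls and, within 1 lane, 1.71 (SE 0.20) and 2.19 (SE 0.30) in CBP-ifKOs. Between the PTZ45 groups, CBP-ifKOs were lower by -2.65 (SE 0.14) for Gm47075 and -2.38 (SE 0.18) for Gm47088. These values chose the transcripts and support nothing further.

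The same comparisons called few genes elsewhere in the transcriptome. An adjusted p under 0.05 was reached by 1.17% of genes with an adjusted p for PTZ45 against Sal in controls, 0.294% in CBP-ifKOs and 0.329% for the interaction. The shares were 1.25% and 0.0872% for PTZ45 against PTZ0 in controls and in CBP-ifKOs.

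Homer1 moved in the same direction by far less. Its normalized counts were 2927, 2758 and 2996 in Control Sal, 2746, 2901 and 3098 in Control PTZ0, and 3935 and 3811 in Control PTZ45. CBP-ifKOs held 2797, 2563 and 2753 in Sal, 2643, 2980 and 2604 in PTZ0, and 3117, 2818 and 2971 in PTZ45. Both Control PTZ45 libraries stood above all 15 others. Ordered by mean, Control PTZ45 (3873) was followed by CBP-ifKO PTZ45 (2969), Control PTZ0 (2915), Control Sal (2894), CBP-ifKO PTZ0 (2742) and CBP-ifKO Sal (2704), and each neighbouring pair below the first overlapped.

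**Figure D3:**
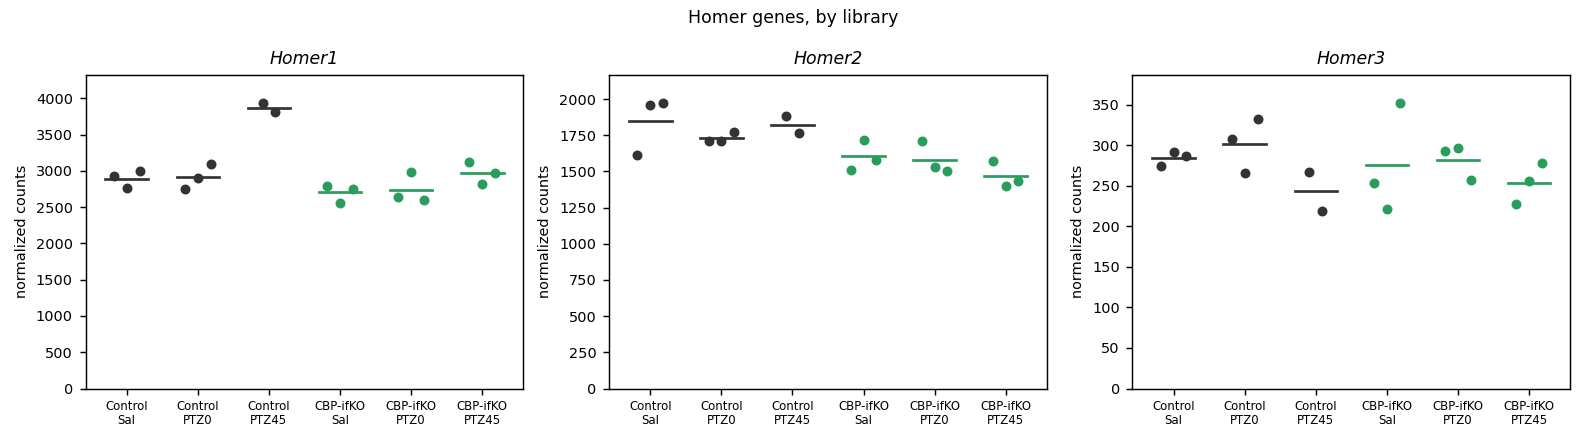
Normalized counts (linear axes from 0) of Homer1, Homer2 and Homer3 in each library, with lines at the group means (black, controls; green, CBP-ifKOs). Homer1 is raised in the 2 Control PTZ45 libraries (3811 and 3935), Homer2 has its lowest mean in CBP-ifKO PTZ45 (1398 to 1571), and the groups of Homer3 lie close together.

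In controls, Homer1 was higher in PTZ45 than in Sal by a log2 fold change of 0.42 (SE 0.08), or 33.6%, and higher than in PTZ0 by 0.41 (SE 0.07). The interaction was -0.29 (SE 0.11), and CBP-ifKO PTZ45 lay below Control PTZ45 by -0.38 (SE 0.08), or -23.2%. As for the transcripts inside it, these contrasts were known when Homer1 was chosen. The response of Homer1 in CBP-ifKOs follows from the response in controls and the interaction, so it too is given as a description. There, all 3 PTZ45 libraries stood above the 3 Sal libraries, with a log2 fold change of 0.13 (SE 0.08, 95% interval -0.03 to 0.29). Within lane 5, PTZ45 and PTZ0 of CBP-ifKOs overlapped, and the log2 fold change was 0.11 (SE 0.08, 95% interval -0.04 to 0.27). Over all alternatives, the values in CBP-ifKOs ran from 0.06 to 0.17 against Sal and from 0.06 to 0.18 against PTZ0.

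From Sal to PTZ45 in controls, the mean rose by 979 normalized counts for Homer1, with 11976 exonic bases, and by 1084 for Gm47075 and 540 for Gm47088, together 1624 over 3654 bases. The intronic transcripts together thus gained more counts than the Homer1 exons in controls. In CBP-ifKOs the corresponding differences were 264, 132 and 68.4, and the exons gained more than both transcripts together (200 normalized counts). They amounted to 27% of the control difference for Homer1, 12.1% for Gm47075 and 12.7% for Gm47088.

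Per kb of exon, Gm47075 was at 11.2% ± 3.02 (SD, n = 3) of the level of Homer1 in Control Sal and at 174% ± 21.9 (SD, n = 2) in Control PTZ45, where the libraries stood at 190% and 159%. Gm47088 went from 7.82% ± 1.96 to 108% ± 17.4, with 120% in the first library and 95.4% in the second. In CBP-ifKOs, Gm47075 was at 10.8% ± 2.44 in Sal and 36.4% ± 3.61 in PTZ45, and Gm47088 at 11.2% ± 3.55 and 27.1% ± 4.38 (SD, n = 3). These shares depend on the length given to Homer1, whose exons are never all in 1 transcript. Over the union of exons, the Control PTZ45 levels were 323 normalized counts per kb for Homer1 and 565 for Gm47075, whereas over the longest transcript Homer1 stood at 678 per kb, above Gm47075. The ratio of Gm47088 to Gm47075 per kb was 0.699 ± 0.0573 (SD, n = 3) in Control Sal, 0.615 ± 0.0205 (SD, n = 2) in Control PTZ45 and 0.744 ± 0.0947 (SD, n = 3) in CBP-ifKO PTZ45, with a wider spread over libraries without PTZ on the last day (0.392 to 1.08).

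The kindling injections alone left none of the 5 genes with a called difference a week later, by DESeq2 or by edgeR. An unadjusted p under 0.05 was reached by 0 of 5 in either genotype. Over all genes tested the share was 0.581% in controls and 0.336% in CBP-ifKOs, so these counts say nothing of the 5 genes. For PTZ0 against Sal in controls, made within lane 3, the log2 fold changes were 0.01 (SE 0.06) for Homer1, -0.09 (SE 0.08) for Homer2, 0.09 (SE 0.12) for Homer3, -0.15 (SE 0.28) for Gm47075 and -0.15 (SE 0.36) for Gm47088, each with an adjusted p of 1. The 95% interval of Homer1 ran from -0.11 to 0.13, and that of Gm47075 from -0.70 to 0.41. In CBP-ifKOs the log2 fold changes ran from -0.76 (SE 0.41) for Gm47088, with an interval of -1.55 to 0.04, to 0.18 (SE 0.30) for Gm47075, again with an adjusted p of 1 for every gene. Both comparisons called almost nothing, 0.00843% and 0.0112% of genes with an adjusted p.

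Homer2 (ENSMUSG00000025813; chr7:81600481-81707527, minus strand, 12621 exonic bases) did not follow PTZ. Its normalized counts were 1612, 1956 and 1972 in Control Sal, 1707, 1711 and 1775 in Control PTZ0, and 1885 and 1762 in Control PTZ45. In CBP-ifKOs they were 1513, 1720 and 1581 in Sal, 1711, 1533 and 1501 in PTZ0, and 1571, 1398 and 1433 in PTZ45. PTZ45 and Sal overlapped in both genotypes, with log2 fold changes of -0.02 (SE 0.11, adjusted p = 0.996) in controls and -0.13 (SE 0.09, adjusted p = 1) in CBP-ifKOs. The interaction was -0.11 (SE 0.14, adjusted p = 1). Against PTZ0, the log2 fold changes were 0.07 (SE 0.08, adjusted p = 0.912) and -0.11 (SE 0.08, adjusted p = 1).

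Homer2 was lower in CBP-ifKOs. In PTZ45, all 3 CBP-ifKO libraries lay below both controls, at a log2 fold change of -0.31 (SE 0.10) or -19.4% (adjusted p = 0.0444), in a comparison that called 3.07% of genes with an adjusted p. Over Sal and PTZ0, with treatment as a term, Homer2 was lower by -0.17 (SE 0.06, adjusted p = 0.0298), or -11.1%, where 14.6% of genes were called. Taken alone, Sal gave -0.21 (SE 0.10, adjusted p = 0.385) and PTZ0 gave -0.13 (SE 0.07, adjusted p = 0.314), and the groups overlapped in each. The first call rests on few libraries. It was lost in 7 of 11 alternatives, among them the removal of any single library, with adjusted p of 0.777 and 0.222 without Control PTZ45 replicates 1 and 2, and 0.0651, 0.435 and 0.192 without CBP-ifKO PTZ45 replicates 1, 2 and 3. The second was lost in 8 of 18, with adjusted p of 0.0906 and 0.0876 without Control Sal replicates 2 and 3, 0.0918 and 0.0538 without CBP-ifKO Sal replicates 1 and 3, 0.0668 without Control PTZ0 replicate 3, and 0.0548 and 0.0787 without CBP-ifKO PTZ0 replicates 2 and 3. Every alternative kept the lower value in CBP-ifKOs.

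CA1 pyramidal cell markers moved with genotype as well. The sum of the 6 markers was 4696 to 5120 normalized counts in controls and 3381 to 3768 in CBP-ifKOs, and 4 of 6 were called lower in PTZ45 and 4 of 6 over Sal and PTZ0, with medians of -0.47 and -0.39. No marker of the list was at 0. Markers of other cell types were also called lower over Sal and PTZ0, where 14.6% of all genes were called in either direction. These were 3 of 6 for oligodendrocytes (median -0.20), 2 of 6 for astrocytes (-0.16) and 2 of 8 for interneurons (-0.10). Near that share, 1 of 6 was lower each for CA3 and CA2 (-0.19), thalamus and habenula (-0.15) and endothelial and mural cells (0.03). Of the dentate granule cell markers 2 were higher and 2 lower (-0.07), of the cerebellar markers 1 was higher (0.21), and no microglia marker was called (-0.16). In PTZ45, where 3.07% of all genes were called, 1 dentate granule cell marker was higher and 1 lower (median -0.20). Apart from CA1, no marker of the other lists was called there. From counts of hippocampal tissue alone, fewer cells of a type and less RNA per cell cannot be told apart. In aged CBP-ifKOs, older than the mice used here, the study saw no apparent loss of CA1 neurons. The part of these markers in the result for Homer2 was not tested. Gm44570, an antisense transcript that shares 525 exonic bases with Homer2, held 12 to 31.1 normalized counts, and Gm26149, a small nuclear RNA gene in a Homer2 intron, at most 4.35.

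The other genes had no called genotype difference in the comparisons that were tested. Homer1 was lower in CBP-ifKOs by -0.10 (SE 0.08, adjusted p = 0.772) in Sal and -0.09 (SE 0.07, adjusted p = 0.595) in PTZ0, in comparisons that called 2.04% and 6.68% of genes with an adjusted p. Over both treatments its log2 fold change was -0.09 (SE 0.05, adjusted p = 0.199), and it passed the test without CBP-ifKO PTZ0 replicate 2 (-0.12, adjusted p = 0.044) and after a correction for GC content (-0.12, adjusted p = 0.0381). Gm47075 and Gm47088 differed by -0.01 (SE 0.19, adjusted p = 0.976) and 0.11 (SE 0.25, adjusted p = 0.841) over Sal and PTZ0, with 95% intervals of -0.38 to 0.35 and -0.39 to 0.60. The difference had opposite signs within the treatments, and the libraries overlapped in each. In Sal it was -0.18 (SE 0.31, adjusted p = 0.939) for Gm47075 and 0.39 (SE 0.37, adjusted p = 0.831) for Gm47088. In PTZ0 it was 0.15 (SE 0.28) and -0.21 (SE 0.40), where both fell under the independent filter of DESeq2 and have no adjusted p.

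Homer3 (ENSMUSG00000003573; chr8:70282827-70294361, plus strand, 3440 exonic bases) had the lowest counts of the family. It held 275, 292 and 287 normalized counts in Control Sal, 308, 266 and 332 in Control PTZ0, and 267 and 219 in Control PTZ45. In CBP-ifKOs it held 254, 222 and 352 in Sal, 293, 297 and 257 in PTZ0, and 227, 256 and 278 in PTZ45. Both Control PTZ45 libraries stood below the 3 Control Sal libraries, with a log2 fold change of -0.22 (SE 0.16, 95% interval -0.53 to 0.09, adjusted p = 0.847). It was -0.37 without Control PTZ45 replicate 1, -0.09 without replicate 2 and -0.03 with the GC correction, with an adjusted p of 0.503 to 1 over all alternatives. Against Control PTZ0, which overlapped them, it was -0.31 (SE 0.16, adjusted p = 0.591), with a range of -0.47 to -0.16 over all alternatives. In CBP-ifKOs the log2 fold changes were -0.14 (SE 0.17) against Sal and -0.15 (SE 0.14) against PTZ0, both with an adjusted p of 1. The interaction was 0.08 (SE 0.23, adjusted p = 1), and genotype in PTZ45 gave 0.06 (SE 0.18, adjusted p = 0.972). Ddx49, on the opposite strand, shares 874 exonic bases with Homer3 and held 154 to 214 normalized counts, with no called difference. Whether strand was used in counting is not given in the sources used here, so reads of the overlap cannot be assigned to 1 gene with certainty.

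**Figure D4:**
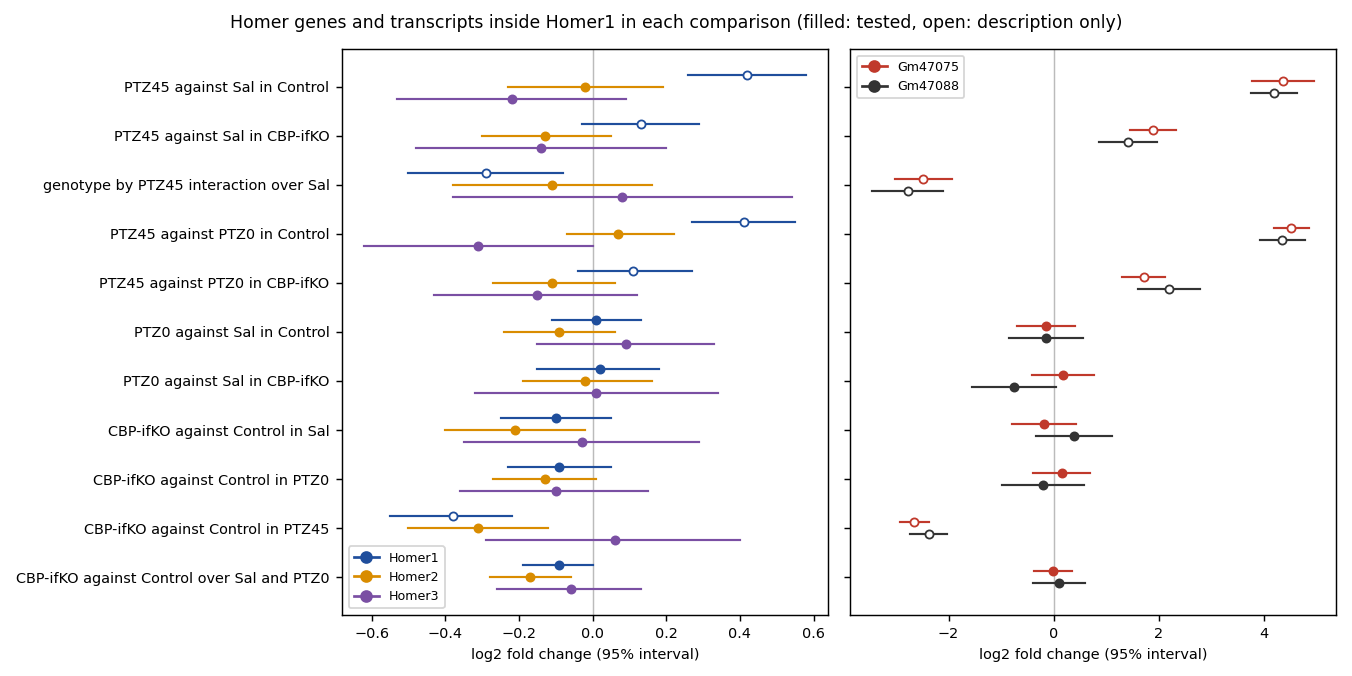
Log2 fold changes (points) with 95% intervals (lines) in the 11 comparisons, for the Homer genes on the left and for Gm47075 and Gm47088 on the right, on separate scales. Filled points were tested and open points are given as a description. The open points of Gm47075 and Gm47088 in the PTZ45 contrasts lie far from 0. Those of Homer1 are near 0.4 for PTZ45 in controls and near 0.1 in CBP-ifKOs, and at -0.29 for the interaction and -0.38 for genotype in PTZ45.

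On a per-kb scale, Homer1 was the most abundant member of the family. It stood at 242 normalized counts per kb of exon in Control Sal, Homer2 at 146 and Homer3 at 82.7, so that Homer1 made up 51.4% ± 2.56 (SD, n = 3) of the sum of the 3 genes. The share was 60% ± 1.34 (SD, n = 2) in Control PTZ45 (59.1% and 61%) and 56.6% ± 0.954 (SD, n = 3) in CBP-ifKO PTZ45, against 49% to 54.7% in the libraries without PTZ on the last day. The PTZ45 libraries of each genotype lay above these. The order of the 3 genes was the same in all 6 groups.

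The genes with the most similar pattern were ranked by the Pearson correlation of log2(normalized counts + 1) over 17 libraries, among the 13040 genes whose mean was 50 or more. For Gm47075 they were Egr1 (0.97), Gm47088 (0.97) and Tiparp (0.97), and for Gm47088 they were Egr1 (0.98), Gm47075 (0.97) and Fos (0.97). Egr1 and Fos are transcription factors of the immediate early response. Homer1 was most similar to Hnrnpll (0.96), Zfp281 (0.95) and Zfand5 (0.94), Homer2 to Specc1 (0.94), Gm2115 (0.93) and Atxn1 (0.93), and Homer3 to Ism1 (0.90), Mrps24 (0.86) and Rpusd1 (0.86). Homer1 correlated with Gm47075 at 0.85 and with Gm47088 at 0.81, whereas Homer2 correlated with them at 0.09 and 0.10 and Homer3 at -0.51 and -0.49. All these values share the libraries and their scaling, and for Homer1 and the transcripts inside it they largely rest on the PTZ45 libraries, so they are descriptions.

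Partners of Homer were followed in a list of 22 genes, which holds the metabotropic glutamate receptor gene Grm5 and effectors of its signalling (Gnaq, Gna11, Plcb1, Plcb4), postsynaptic scaffolds (Shank1 to Shank3, Dlgap1 to Dlgap4, Dlg4), calcium release channels (Itpr1 to Itpr3, Ryr1 to Ryr3) and further binders (Agap2, Dnm3, Trpc1). They are called partners below for short, although the list also covers signalling and scaffold genes whose products need not bind Homer. DESeq2 called none of the 22 higher in the 11 comparisons. PTZ left most of them uncalled. In controls, PTZ45 against Sal called 1 of 22 lower, where 1.17% of all genes were called: Dlgap3, which links Shank to Dlg4 at the postsynaptic density (-0.47, adjusted p = 0.000704), and the list had a median of 0.02 against 0.01 for all genes tested. In CBP-ifKOs, where 0.294% of all genes were called, it was 2 of 22 lower, Dlgap3 (-0.66, adjusted p = 4.92e-05) and the scaffold Shank3 (-0.45, adjusted p = 0.00771), with a median of -0.14 against 0.00. After correction for GC content, 0 were called in either genotype (Dlgap3 at -0.20 and -0.26, Shank3 at -0.16, each with an adjusted p of 1), whereas edgeR called 2 in controls and 4 in CBP-ifKOs. The count in controls was 0 without Control Sal replicate 2 or Control PTZ45 replicate 2 and 2 without Control Sal replicate 1, and the count in CBP-ifKOs was 1 with CBP-ifKO PTZ45 replicate 1 or 3, or CBP-ifKO Sal replicate 2, left out. DESeq2 called 0 of 22 for the interaction, for PTZ45 against PTZ0 and PTZ0 against Sal in each genotype, and for genotype in Sal. The shares of all genes called there were 0.329%, 1.25% and 0.0872% (PTZ45 against PTZ0 in controls and CBP-ifKOs), 0.00843% and 0.0112% (PTZ0 against Sal) and 2.04%, at which a list of 22 would hold fewer than 1 called gene, so a count of 0 says nothing of the partners. At an unadjusted p under 0.05 there was 1 of 22 for the interaction, where 1.76% of all genes tested reached it. For PTZ45 against PTZ0 there were 6 of 22 in controls and 4 of 22 in CBP-ifKOs, against 8.3% and 2.12% of all genes. For PTZ0 against Sal there was 1 of 22 in each genotype, against 0.581% and 0.336%, and for genotype in Sal there were 3 of 22, near the share of 10.7% over all genes. Over these 6 comparisons edgeR called 1, 2, 2, 0, 0 and 1 in the same order. Without 1 library, 3 were called for PTZ45 against PTZ0 in controls (Control PTZ45 replicate 1) or 1 (Control PTZ45 replicate 2), 1 in CBP-ifKOs (CBP-ifKO PTZ0 replicate 3), and 1 for genotype in Sal (CBP-ifKO Sal replicate 2 or 3).

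Between genotypes, the called genes of the list were lower in CBP-ifKOs, as were most called genes of the transcriptome. Whether the counts of the list differed from the shares over all genes was not tested. Over Sal and PTZ0, 14.6% of all genes were called in either direction (1573 lower, 962 higher). The median of the list was -0.08 against 0.01 for all genes. Here 5 of 22 were called lower. They were Grm5, the receptor mGluR5 (-0.16, adjusted p = 0.000354), Dlgap1 (-0.15, adjusted p = 0.0195), Dlgap3 (-0.29, adjusted p = 0.0063), Dlg4, which encodes PSD-95 (-0.24, adjusted p = 0.000629), and Gnaq, the G protein subunit that couples the receptor to phospholipase C (-0.14, adjusted p = 0.0146). Grm5, Dlgap3 and Dlg4 were called in all 18 alternatives. Without Control Sal replicate 1 the count was 8, and without CBP-ifKO PTZ0 replicate 3 it was 3. The call of Dlgap1 was lost without Control Sal replicate 2 or 3, CBP-ifKO Sal replicate 1, Control PTZ0 replicate 1 or CBP-ifKO PTZ0 replicate 3 (adjusted p of 0.0503 to 0.0664), and that of Gnaq without CBP-ifKO PTZ0 replicate 3 (0.0567). With edgeR, both calls were lost (adjusted p of 0.0695 for Dlgap1 and 0.085 for Gnaq).

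**Figure D5:**
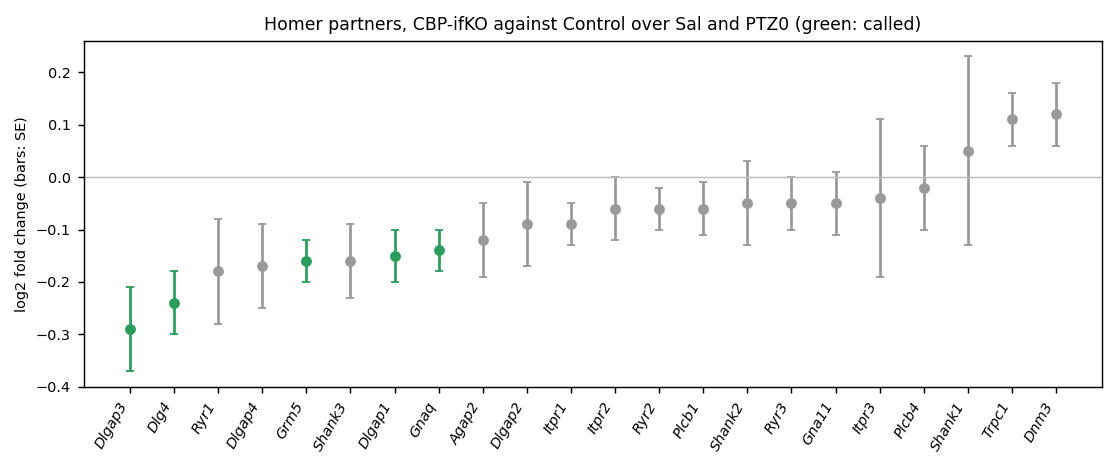
Log2 fold changes of the 22 genes listed for Homer partners and group I metabotropic glutamate receptor signalling, sorted by size, with bars for the SE. The comparison is CBP-ifKO against Control over Sal and PTZ0. The 5 called genes (green) are all below 0, from -0.29 for Dlgap3 to -0.14 for Gnaq.

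In PTZ45, 3.07% of all genes were called (430 lower, 38 higher). Of the partners, 4 of 22 were lower in CBP-ifKOs, namely Dlgap3 (-0.48, adjusted p = 0.00785), Gnaq (-0.35, adjusted p = 0.00572), Dlg4 (-0.33, adjusted p = 0.0056) and Dlgap1 (-0.29, adjusted p = 0.0135). The median of the list was -0.20 against 0.00. The count fell to 0 without Control PTZ45 replicate 1 or CBP-ifKO PTZ45 replicate 2 and to 2 without CBP-ifKO PTZ45 replicate 3, whereas edgeR called 9. With the GC correction, Dlgap3 was at -0.23 (adjusted p = 0.401). In PTZ0, 6.68% of all genes were called (670 lower, 182 higher). Near that share, 2 of 22 were lower, Dlg4 (-0.26, adjusted p = 0.00124) and Dlgap1 (-0.16, adjusted p = 0.0452). The count there was 0 without Control PTZ0 replicate 1 or CBP-ifKO PTZ0 replicate 3 and 1 without Control PTZ0 replicate 2 or 3, and Dlgap1 was called in 1 of 12 alternatives. The cell type markers given beside Homer2 moved with genotype too, and their part in these differences was not tested.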

How the data were processed

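Hippocampal total RNA was sequenced as 50 bp single-end reads on a HiSeq2500. The deposited values are raw counts per gene. Per the study's methods and the submitters' processing notes, the authors trimmed reads with Trim Galore 0.6.4, aligned them to mm10 (GRCm38) with STAR 2.6.1, kept reads with a mapping quality above 10 and counted them on Ensembl exons with Rsubread. Whether strand was used is not given in the sources used here. Of the columns of counts, 1 matched no sample and was not used. By name it would belong to Control PTZ45, the group with 2 libraries, and the description of Control PTZ45 replicate 2 carries the number 3, so the replicate numbers of this group may be shifted in the block. Gene models came from GENCODE M21 and promoters from RefSeq (GRCm38.p6).

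Counts were tested with the two-sided Wald test of DESeq2 1.42.0 in R 4.3.3, as in the study's methods (which used DESeq2 1.30.1), with Benjamini-Hochberg adjustment over all genes and independent filtering. A gene was called at an adjusted p under 0.05. Pairs of groups were fitted alone. Genotype over Sal and PTZ0 had treatment as a term, and the interaction used the Sal and PTZ45 libraries. Levels are counts divided by DESeq2 size factors over 17 libraries, given per kb of union exon where genes are compared. The scripts were tested on simulated data.

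Alternatives were edgeR 4.0.16 (quasi-likelihood), TMM size factors, a filter on low values (10 or more counts in 2 or more libraries), 1 fit of all libraries, a replicate block, a correction for exonic GC content (loess, span 0.5, genes with a mean of at least 20) and leaving out each library. Named were the 5 genes, genes overlapping them, called partners (at most 5 per direction), Crebbp and the 3 most similar genes. The members and lists were chosen with earlier results of these data known. Some genes of the partner list are not reported here and were left out of its counts and medians.

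Other marker lists were checked for the same contrasts: dentate granule, CA3 and CA2, interneuron, astrocyte, oligodendrocyte, microglia, endothelial and mural, cerebellar, and thalamus and habenula. For PTZ45 against Sal, the medians of these lists ran from -0.16 to 0.04 in controls and from -0.23 to 0.19 in CBP-ifKOs.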

Additional observations from a re-analysis of the deposited data

How the results depend on the processing

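The 55 fold changes of the 5 genes were recomputed 700 times in all, and 639 of these values were counted as the same. That meant the same direction and call. For the PTZ45 contrasts that chose Gm47075, Gm47088 and Homer1, it meant the same direction and a shift below the SD between libraries. Most values had no call to lose. The only calls were those of Homer2 for genotype, lost in 7 of 11 alternatives in PTZ45 and in 8 of 18 over Sal and PTZ0. All 40 reversals were of values with no adjusted p under 0.05 in the first place. The PTZ45 contrasts of Gm47075, Gm47088 and Homer1 that chose them kept their direction throughout: in controls against Sal the log2 fold change ran from 4.21 to 4.65 for Gm47075, from 4 to 4.46 for Gm47088 and from 0.31 (GC correction) to 0.45 for Homer1. With the replicate block, Homer2 was at 0.04 for PTZ45 against Sal in controls, -0.30 for genotype in PTZ45 (adjusted p = 1) and -0.17 for genotype over Sal and PTZ0 (adjusted p = 0.0503), and Homer3 at -0.01 for genotype in PTZ45; the block changed no other call of these 5 genes. Of the Homer partners, the block called 0 for PTZ45 against Sal in controls (Dlgap3 -0.47, adjusted p = 0.947) and 4 in CBP-ifKOs, and 1 and 0 for genotype in PTZ0 and PTZ45 (adjusted p of 0.271 to 1 for the 4 genes called there without it). Replicate numbers did not pair the libraries: of 40 pairs of same-numbered libraries, 15 had deviations correlated above 0.1, from -0.52 to 0.53. The block moved the genes called for PTZ45 against Sal from 204 to 73 in controls and from 58 to 84 in CBP-ifKOs, those for the interaction from 69 to 53, and those for genotype in Sal, PTZ0 and PTZ45 from 306, 852 and 468 to 122, 410 and 102. With the GC correction, Homer3 was at 0.05 for PTZ45 against Sal in CBP-ifKOs, 0.04 for genotype in Sal and 0.01 for genotype over Sal and PTZ0, and Homer1 at -0.00 for PTZ0 against Sal in CBP-ifKOs and -0.12 for genotype over Sal and PTZ0 (adjusted p = 0.0381). With the count filter, Homer2 for genotype in PTZ45 was at -0.31 (adjusted p = 0.0647). The causes of these moves were not tested.

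Leaving out each library gave the following ranges. For PTZ45 against Sal, Homer2 ran from -0.11 to 0.03 in controls and Homer3 from -0.26 to 0.08 in CBP-ifKOs, and the interaction of Homer3 from -0.05 to 0.30. For PTZ0 against Sal in controls, Homer1 ran from -0.04 to 0.05, Gm47075 from -0.30 to 0.14 and Gm47088 from -0.32 to 0.10. In CBP-ifKOs, Homer1 ran from -0.05 to 0.05, Homer2 from -0.07 to 0.03, Homer3 from -0.10 to 0.23 and Gm47075 from -0.01 to 0.37. For genotype in Sal, Homer3 ran from -0.25 to 0.09 and Gm47075 from -0.36 to 0.10, and in PTZ0 Gm47088 from -0.58 to 0.01. For genotype in PTZ45, Homer2 ran from -0.36 to -0.26 and Homer3 from -0.07 to 0.21. For genotype over Sal and PTZ0, Homer1 ran from -0.12 to -0.07, Homer2 from -0.21 to -0.14, Gm47075 from -0.08 to 0.13 and Gm47088 from -0.06 to 0.23. Where this left 1 Control PTZ45 library, it was assumed to vary like the others.

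edgeR without a filter called more genes than DESeq2, 607 against 204 for PTZ45 against Sal in controls, 218 against 58 in CBP-ifKOs and 121 against 69 for the interaction. It called 773 against 225 for PTZ45 against PTZ0 in controls and 101 against 23 in CBP-ifKOs, 85 against 3 and 21 against 4 for PTZ0 against Sal, and 828 against 306, 1428 against 852 and 972 against 468 for genotype in Sal, PTZ0 and PTZ45. At 17.3 to 74.1 normalized counts without PTZ, the transcripts inside Homer1 have wide intervals there, and only 2 Control PTZ45 libraries carry their peak.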
